A study of Arabidopsis thaliana with 8 samples.

Results

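AGL26, AGL54 and AGL103 are *Arabidopsis thaliana* genes named for the AGAMOUS-like group of MADS-box genes. They were chosen as the MADS-box symbols that the platform annotation gives to a probe as its only gene, which yielded 3 genes with 1 probe each, of 691 genes named alone by a probe. RNA abundance was measured on 8 arrays, all of plants of the ecotype Wassilevskija raised on MS medium. Of these, 4 carried total RNA of the *atpd* mutant, in which the delta subunit of ATP synthase is missing, and 4 carried RNA of wild-type plants (WT). The labels give no tissue, age or allele and name no plants or cultures behind the arrays, so every p-value measures the spread between arrays, which may be technical.

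MADS-domain proteins are transcription factors that bind DNA through a conserved N-terminal domain. Plants have a type II class, to which the floral organ identity genes belong, and a type I class with simpler gene structures. In *Arabidopsis*, type I genes are known mainly from the female gametophyte and the endosperm, where AGL80 and AGL61 act in the central cell and AGL62 in endosperm development. AGL54 and AGL103 are placed in the type I class. The symbol AGL26 sits on locus AT5G26880, which *Arabidopsis* annotation has also described as an RNA methyltransferase of the SpoU family, so the AGL26 signal cannot be taken as that of a MADS-domain protein with certainty. AGL54 is locus AT5G27090 and AGL103 is locus AT3G18650. No protein, probe or promoter sequence of these genes was at hand, so the class was not checked from sequence.

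The arrays differed in overall brightness. On the linear, arbitrary scale of the deposited table, which runs from 0 to 100, the median of values above 0 was 0.613 to 0.705 on the *atpd* arrays and 0.279 to 0.303 on the WT arrays, a ratio of 2.25 between the means. Between 413 and 420 of the 3439 probes were at 0 on the *atpd* arrays and between 395 and 430 on the WT arrays. Arrays 1 and 2 of a genotype resembled each other, as did arrays 3 and 4, more so in *atpd* than in WT. Deviations from the genotype mean correlated at 0.61 (arrays 1 and 2) and 0.75 (arrays 3 and 4) in *atpd*, and at 0.19 and 0.20 in WT. A deposited value can therefore rise in *atpd* by the general shift alone, and each gene is given below as deposited, as a rank within its array, and after quantile normalisation, which gives all arrays the same distribution. Of 15 green leaf marker genes, 5 had a probe of their own, with mean percentiles of 91.1 to 99.7 in *atpd* and 96.3 to 99.8 in WT. Their summed intensity was 48.8 to 62.9 on the *atpd* arrays and 87.0 to 96.6 on the WT arrays, a sum in which LHB1B2 of the main antenna weighs most (20.2 in *atpd*, 62.3 in WT). Of the 5 markers 4 were called lower in *atpd* and 1, PSBW, a photosystem II subunit, higher (28.0 in *atpd*, 10.1 in WT). Among all tested probes, 30.4% were called lower and 21.4% higher. Of 25 marker genes of endosperm, seed storage, pollen, flower organs and root, 0 had a probe of their own, so the share of the tissues in which type I genes are best known was not checked, and its part in the results below was not tested. Fewer cells that express a gene and less RNA per cell cannot be told apart in such samples.

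AGL54 was the only gene of the 3 called changed, by the probe named for it alone. That probe averaged the 82.8th percentile of brightness on the *atpd* arrays and the 31.3rd on the WT arrays, and after normalisation it was 3.88-fold higher in *atpd*. A probe that AGL54 shares with AGL53 and AGL93 was lower in *atpd*, as given below. AGL26 and AGL103 did not pass the test, which does not show that they were unchanged. Of the 3 genes 1 was thus called higher, where 21.4% of the 2921 tested probes were called higher and 30.4% lower, and 0 were called lower. A single call among 3 genes is near that background and says nothing about the family as a group.

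The AGL54 probe read 1.15, 1.098, 1.24 and 1.16 on *atpd* arrays 1 to 4, against 0.162, 0.144, 0.125 and 0.148 on WT arrays 1 to 4. All *atpd* values lay above all WT values, and the lowest *atpd* value was 6.76 times the highest WT value. The mean deposited intensity was 1.16 ± 0.0586 in *atpd* and 0.145 ± 0.0156 in WT (SD, n = 4 in each), a ratio of 8.03, where the array medians differed by the 2.25 given above. Deposited intensities without overlap and higher in *atpd* were common, at 59.7% of tested probes, so the lack of overlap by itself sets AGL54 little apart. The deposited log2 change of AGL54 was 3.01, against a median of 0.996 over all tested probes.

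**Figure D1:**
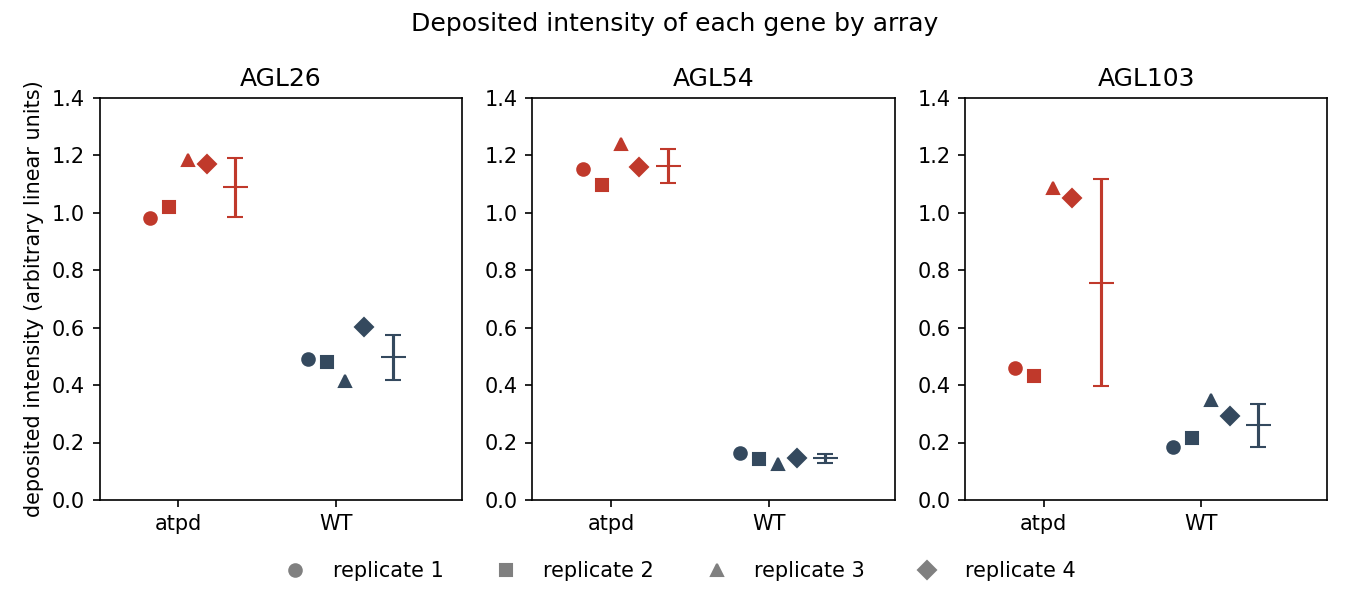
Deposited intensity (arbitrary linear units) of the AGL26, AGL54 and AGL103 probes on the 4 *atpd* arrays (red) and the 4 WT arrays (dark blue). Each symbol is an array, and the bar beside them is the mean ± SD. AGL54 lies between 1.098 and 1.24 in *atpd* and between 0.125 and 0.162 in WT, while AGL103 in *atpd* falls into 2 pairs of arrays.

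The rank of a probe within its array does not depend on the array's scale. With rank 1 the brightest of 3439 probes, AGL54 stood at 591, 641, 514 and 619 on the *atpd* arrays, against 2294, 2414, 2435 and 2313 on the WT arrays. As a percentile, with 100 the brightest, this was 82.8 ± 1.61 in *atpd* and 31.3 ± 2.06 in WT (SD, n = 4 in each). The difference of 51.5 percentile points had an exact permutation p of 0.0286 (two-sided), the smallest that 4 arrays against 4 allow. Percentiles without overlap and higher in *atpd* were found for 21.3% of tested probes. By the size of its rise in percentile AGL54 was 25th of 2921 tested probes and 9th of 583 tested probes with a single gene, while the median of all tested probes moved by -1.23 points.

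After quantile normalisation the log2 intensity of AGL54 was -0.18 ± 0.085 in *atpd* and -2.14 ± 0.11 in WT (SD, n = 4 in each). The log2 change (*atpd* minus WT) was 1.95 (SE 0.13, 95% interval 1.67 to 2.24), with an adjusted p of 9.60e-06 in limma, or 3.88-fold with an interval of 3.17 to 4.73. The median change of all tested probes was -0.090. By log2 change AGL54 was 125th of 2921 tested probes and 33rd of 583 with a single gene, a lower place than by rank. The call held in all 25 alternative settings, with changes from 1.56 to 3.01 and adjusted p from 2.83e-06 to 0.0116. The change was 1.88 in arrays 1 and 2 alone and 2.03 in arrays 3 and 4 alone. With the values as deposited it was 3.01, which moved it by over 1.5 times.

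AGL26 was a fairly bright probe in both genotypes. It read 0.981, 1.02, 1.18 and 1.17 on *atpd* arrays 1 to 4, against 0.491, 0.481, 0.415 and 0.604 on WT arrays 1 to 4. The deposited values did not overlap, as for 59.7% of tested probes in the same direction. The AGL26 means were 1.09 ± 0.103 in *atpd* and 0.498 ± 0.0783 in WT (SD, n = 4 in each). Their ratio of 2.19 was close to the ratio of the array medians, and as a multiple of its array's median AGL26 ranged from 1.60 to 1.70 in *atpd* and from 1.37 to 2.03 in WT. The genotypes thus overlapped once each array's brightness was taken into account.

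By rank AGL26 stood at 767, 734, 574 and 611 on the *atpd* arrays, against 800, 819, 1124 and 739 on the WT arrays. WT replicate 4 lay within the range of the *atpd* arrays, and WT replicate 3 was the dimmest. The percentile was 80.5 ± 2.72 in *atpd* and 74.7 ± 5.01 in WT (SD, n = 4 in each), a difference of 5.79 points with an exact permutation p of 0.0571 (two-sided). Without WT replicate 4 the difference was 7.06 points and the exact p 0.0286, the smallest that 4 arrays against 3 allow. The normalised log2 change was 0.25 (SE 0.15, 95% interval -0.092 to 0.59, adjusted p = 0.197 in limma), which as a fold reaches from 0.938 to 1.50. With the values as deposited it was 1.14 (adjusted p = 0.000267), where 62.6% of tested probes were called higher, and with a common median of the arrays it was -0.030 (adjusted p = 0.889). Between same-numbered arrays AGL26 was higher in *atpd* in 4 of 4 pairs, by 0.039 to 0.67 in normalised log2 and by 0.960 to 16.0 percentile points, a sign pattern for which 4 pairs cannot give an exact p below 0.125. With a common median it was higher in 1 of 4 pairs. With the replicate number as a block the adjusted p was 0.215. The direction of AGL26 thus depended on the scaling.

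AGL103 split by pairs of arrays, and its ranks overlapped between genotypes. It read 0.459, 0.431, 1.09 and 1.05 on *atpd* arrays 1 to 4, against 0.183, 0.217, 0.347 and 0.293 on WT arrays 1 to 4. In both genotypes arrays 3 and 4 were brighter than arrays 1 and 2, by 2.40 times in *atpd* and 1.60 times in WT. The deposited values of the genotypes did not overlap, as for 59.7% of tested probes in the same direction. The lowest *atpd* value was only 1.24 times the highest WT value. Mean intensities were 0.757 ± 0.361 in *atpd* and 0.260 ± 0.0740 in WT (SD, n = 4 in each), a ratio of 2.91.

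By rank AGL103 stood at 1952, 2044, 693 and 772 on the *atpd* arrays, against 2155, 1914, 1336 and 1523 on the WT arrays. The mean percentile in arrays 1 and 2 was 41.9 in *atpd* and 40.9 in WT, and in arrays 3 and 4 it was 78.7 in *atpd* and 58.5 in WT. Over all arrays it was 60.3 ± 21.3 in *atpd* and 49.7 ± 10.8 in WT (SD, n = 4 in each), with an exact permutation p of 0.343 (two-sided). The normalised log2 change was 0.38 (SE 0.36, 95% interval -0.44 to 1.21, adjusted p = 0.401 in limma). As a fold the interval reaches from 0.738 to 2.31, so the 4 arrays a genotype do not settle whether AGL103 changed. The log2 change was 0.59 without *atpd* replicate 1, 0.62 without *atpd* replicate 2, 0.16 without *atpd* replicate 3, 0.19 without *atpd* replicate 4 and 0.24 without WT replicate 1, with no call in any of these. The difference in percentile, 10.7 points over all arrays, ranged from 4.15 to 17.2 points with 1 array left out.

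The AGL103 values of the genotypes separated in arrays 3 and 4 and overlapped, after normalisation, in arrays 1 and 2. Its log2 change was 0.032 in arrays 1 and 2 alone (SE 0.14, adjusted p = 0.866 in limma) and 0.74 in arrays 3 and 4 alone (SE 0.12, adjusted p = 0.0103 in limma). Each of these tests rests on 2 arrays a genotype that resemble each other, and the labels do not say if they share an RNA sample. Calls were common in such small sets. In arrays 3 and 4 alone 1703 of 2876 probes were called, 686 of them higher, and in arrays 1 and 2 alone 1599 of 2893. The difference in the AGL103 change between both sets was not tested. With the array set as a block the AGL103 change was 0.38 with an adjusted p of 0.0819. With the values as deposited it was 1.45 with an adjusted p of 0.00832, where 62.6% of tested probes were called higher.

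**Figure D2:**
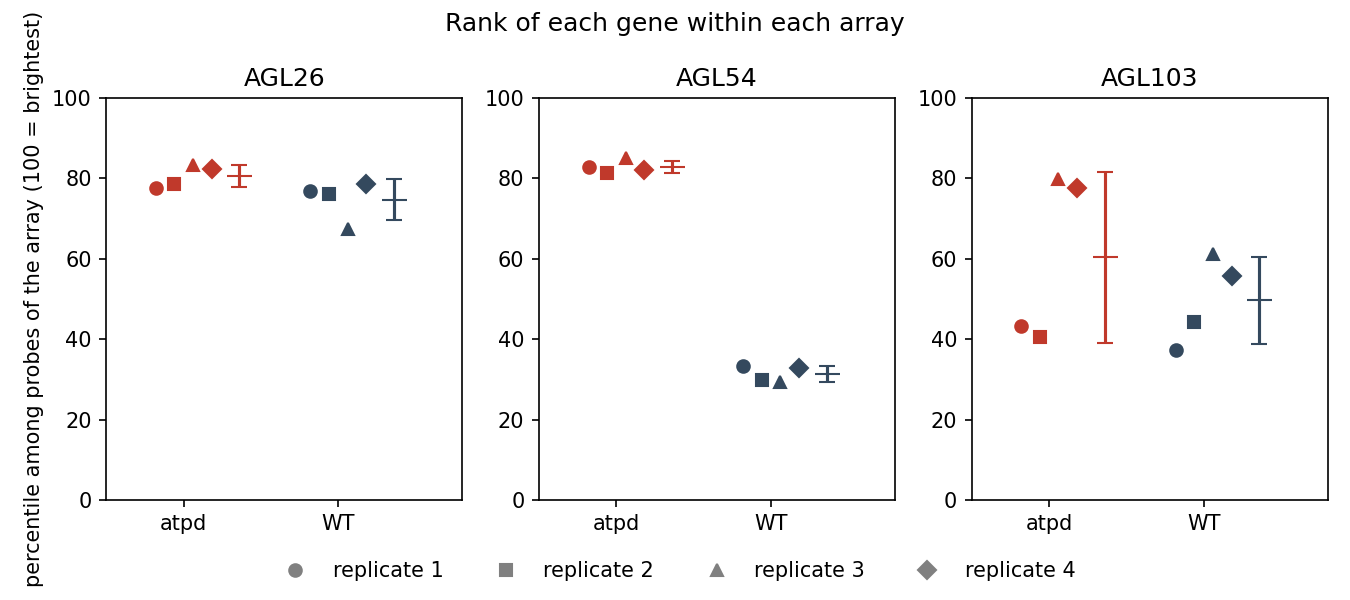
Percentile of the AGL26, AGL54 and AGL103 probes among the 3439 probes of each array (100 = brightest) on the 4 *atpd* arrays (red) and the 4 WT arrays (dark blue), with mean ± SD beside the symbols. AGL54 is at 81.4 to 85.1 in *atpd* and 29.2 to 33.3 in WT, while both other genes overlap between genotypes.

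The changes were also set against each other within arrays, which asks whether 2 genes changed unequally and leaves out any shift of a whole array. The within-array log2 difference of AGL54 minus AGL103 was 0.21 to 1.46 in *atpd* and -1.23 to -0.19 in WT. AGL54 changed by 1.57 more than AGL103 on the log2 scale (exact permutation p = 0.0286, two-sided, the smallest possible). Without WT replicate 3 the exact permutation p of this difference was 0.0571. The log2 difference of AGL26 minus AGL54 was -0.24 to 0.0088 in *atpd* and 1.44 to 1.70 in WT, so AGL26 changed by 1.71 less than AGL54 (exact permutation p = 0.0286, two-sided). AGL26 and AGL103 differed in change by -0.14 (exact permutation p = 0.800), and the sign of this difference turned with cyclic loess and with single arrays left out. These were 3 comparisons with unadjusted p, each array counted as a unit.

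**Figure D3:**
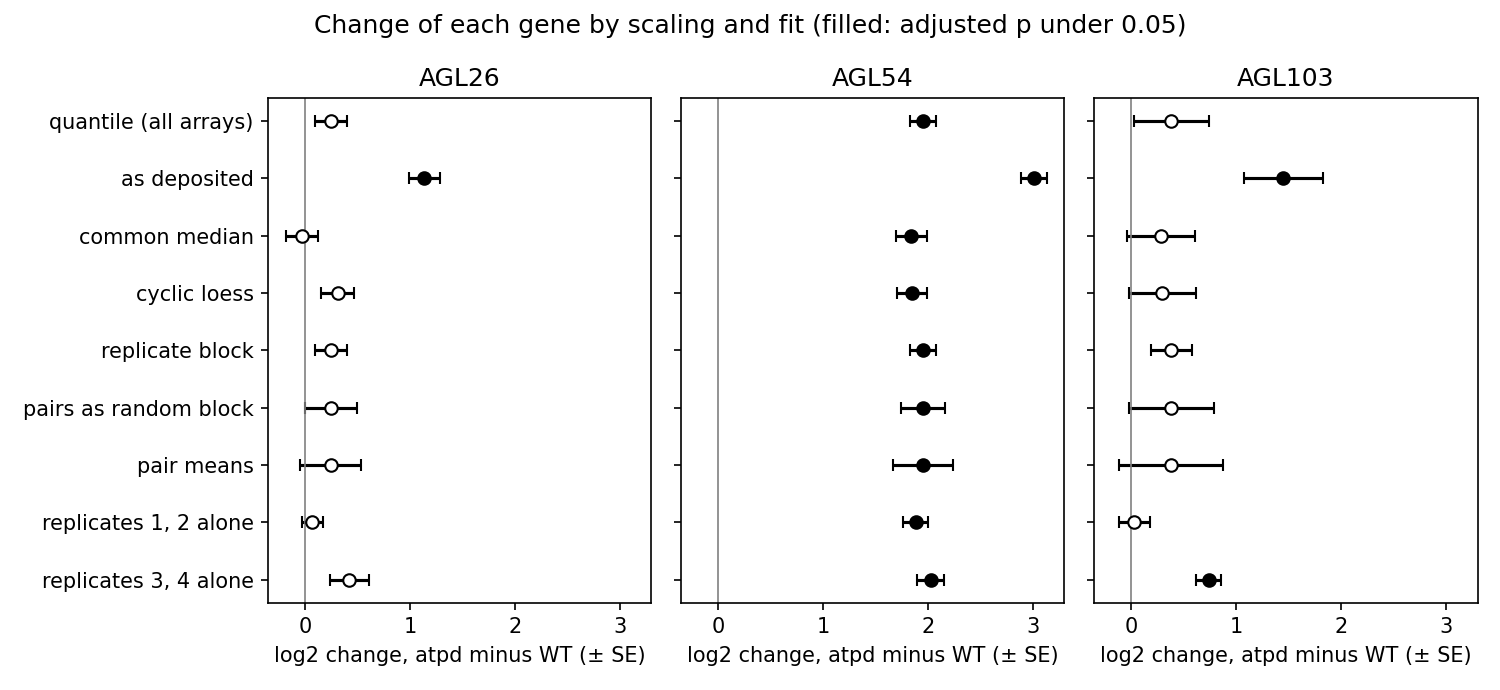
Log2 change (*atpd* minus WT, with SE) of AGL26, AGL54 and AGL103 under 9 scalings and fits, filled where the adjusted p from limma was under 0.05. AGL54 is filled in every row, from 1.84 with a common median to 3.01 as deposited. AGL26 is filled only as deposited, and AGL103 only as deposited and in replicates 3 and 4 alone.

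Besides the probe of its own, the annotation lists AGL54 on a probe shared with AGL53 and AGL93, both type I symbols on the same chromosome. By the reference gene order, 1 protein-coding gene, CDC20.3, lies between AGL53 and AGL54, and 12 lie between AGL93 and AGL53. No gene is named from this shared probe, but its values went the other way. It read 0.145, 0.212, 0.129 and 0.127 on *atpd* arrays 1 to 4, against 0.222, 0.292, 0.307 and 0.272 on WT arrays 1 to 4. All *atpd* values were below all WT values, although the *atpd* arrays were brighter on the whole. How many tested probes did the same was not counted. With the values as deposited, 260 of 2921 tested probes were called lower.

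The shared probe stood at the 16.6th percentile on average in *atpd*, with a range of 14.1 to 21.5, and at the 52.9th in WT, with a range of 44.9 to 57.5. How many tested probes had percentiles without overlap and lower in *atpd* was not counted. The normalised log2 change of the shared probe was -2.52 (SE 0.36, adjusted p = 0.000461 in limma), where 30.4% of tested probes were called lower. The change was below 0 and called in each of the 24 alternatives that kept the probe, from -3.20 in arrays 3 and 4 alone to -0.86 as deposited. The alternative without the dimmest 25% of probes left it out. The AGL54 probe changed by 4.48 more than the shared probe on the log2 scale (exact permutation p = 0.0286, two-sided). Which transcripts either probe detects was not tested, so the rise above is that of the probe named for AGL54 and not, with certainty, of all AGL54 transcript. A second shared probe lists AGL26 with AGL89, AGL101 and AT5G27944. It is listed at 0 on all 8 arrays, which need not mean that these transcripts were absent.

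**Figure D4:**
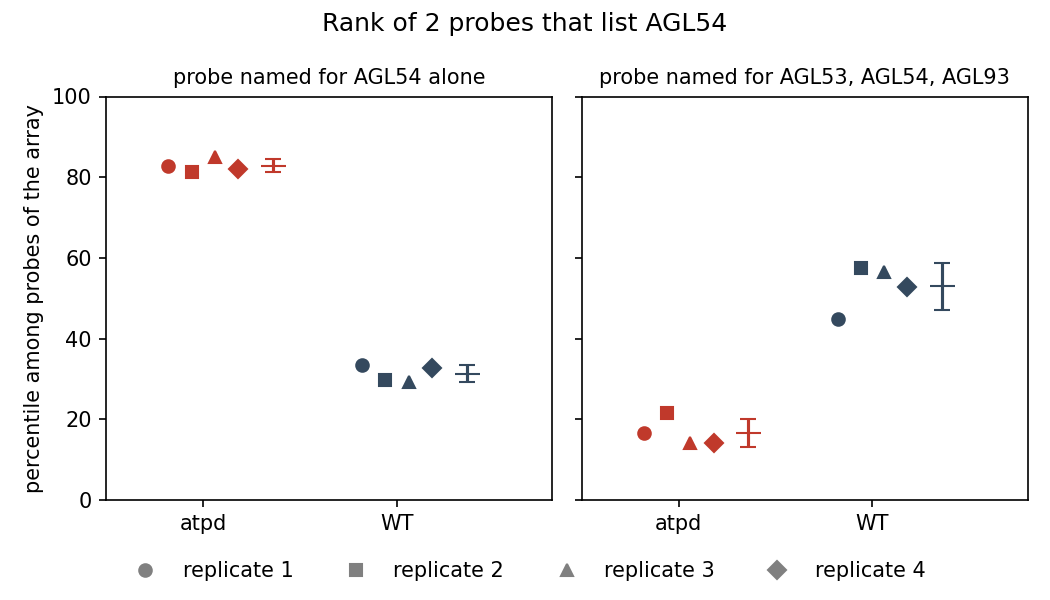
Percentile within each array of the probe named for AGL54 alone (left) and of the probe shared by AGL53, AGL54 and AGL93 (right) on 4 *atpd* arrays (red) and 4 WT arrays (dark blue), with mean ± SD. The first averages 82.8 in *atpd* and 31.3 in WT, the second 16.6 in *atpd* and 52.9 in WT.

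Little more of the family could be seen. Of 98 MADS-box genes found in the reference gene table, including the floral regulators AG, AP1, AP3, PI and SEP3 and the flowering repressor FLC, only the 3 genes described here had a probe of their own. Another 4 (AGL53, AGL89, AGL93 and AGL101) appeared only on the shared probes. Over the 3 tested genes the median log2 change was 0.38, which is the value of AGL103 (adjusted p = 0.401 in limma), against -0.090 over all tested probes. A median of 3 genes says nothing about the family as a group.

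Because of the other description of AT5G26880, AGL26 was also set beside a list of 13 loci of RNA methylation and RNA processing. The reference gives no descriptions, so the identity of these loci was not checked. Of the 5 with a tested probe, AGL26 included, 2 rose, 0 fell and 3 did not pass, with a median log2 change of 0.41. Beside the 21.4% of all tested probes called higher and 30.4% called lower, a count of 2 in 5 shows nothing particular to the list. AT2G19870 rose by 2.63 (SE 0.22, adjusted p = 6.07e-05 in limma), at 0.915 ± 0.128 in *atpd* and 0.0426 ± 0.0289 in WT (SD, n = 4 in each, with 1 WT array at 0). With zeros set to a floor its change was 4.54 and the call was lost (adjusted p = 0.0515). AT5G10910 rose by 1.19 (SE 0.21, adjusted p = 0.00167), and its adjusted p with array pairs as a random block was 0.0597. AT4G38020 was at 0.41 (adjusted p = 0.541) and AT5G15390 at -0.42 (adjusted p = 0.0611). AT5G15390 was called lower with a replicate block (adjusted p = 0.0392), the array set as a block (0.0183), array weights (0.0496), in arrays 3 and 4 alone (0.0468) and without WT replicate 4 (0.0447). With the values as deposited AT5G15390 was at 0.95 (adjusted p = 0.00111).

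The genes with the most similar pattern were sought among 570 other single-gene probes with values on all arrays, by Pearson correlation of normalised log2 intensity over the 8 arrays, given as a description. For AGL54 these were AT1G31220 (r = 0.997), AT4G31530 (0.993), PSBW (0.989), AT4G19900 (0.989) and AT4G17070 (0.988). All of these also had higher values in *atpd*, by 1.50 on the log2 scale for AT1G31220 and 2.14 for PSBW, and this step between the genotypes enters the correlation. In mean rank over all arrays the neighbours of AGL54 were AT1G09200 and AT1G18060, at changes of -0.53 and 0.91.

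For AGL103 the nearest patterns were AT3G50350 (r = 0.970), AT3G44810 (0.964), AT1G50880 (0.946), AT2G44760 (0.945) and AT3G52960 (0.941). For AGL26 they were AT5G66090 (r = 0.940), AT2G37510 (0.885), AT3G04500 (0.881), AT5G56070 (0.872) and AT2G21720 (0.860). The top 5 of the 3 genes had no gene in common. The neighbours in mean rank were AT4G21820 and AT4G08280 for AGL103 and AT3G11150 and PIFI for AGL26. Between the genes themselves the correlation over the 8 arrays was 0.70 for AGL26 and AGL54, 0.44 for AGL26 and AGL103, and 0.36 for AGL54 and AGL103. The arrays share their genotype step and their pairs, which enter all of these values.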

How the data were processed

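The values are intensities as deposited by the authors, 1 for each probe on each array. How the authors scaled or corrected it is not given in the sources used here. Genotype and replicate number came from the sample titles. The platform annotation names 1 gene for 692 of 3439 probes, and 690 of these were found in the reference (TAIR10.1), used for names and neighbours only.

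Values at 0 were treated as missing, log2 values were quantile-normalised, and 2921 probes with at least 3 values in each genotype were fitted with limma 3.58.1 under R 4.3.3. Tests were two-sided, p-values were adjusted over all of these probes by Benjamini-Hochberg, and the threshold was 0.05. The fit was tested on simulated data in which arrays varied independently, so that test did not cover the likeness within array pairs. Ranks and within-array differences were compared by exact permutation over the arrays, which takes no account of the likeness within array pairs. Array pairs as a random block used statmod 1.5.0. Alternatives were other scalings, filters, blocks, weights, array sets and each array left out. Named genes are the 3 genes, the tested members of both lists (MADS-box, RNA methylation and processing), 5 most similar patterns and 2 rank neighbours each. Genes and lists were chosen with earlier results of these data known. The probes shared by several genes were taken because they list one of the 3 genes, after the files were seen.

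Same-numbered arrays of both genotypes deviated together (correlations 0.362, 0.277, 0.289 and 0.276), so the numbers meet the criterion for pairs. Differently numbered arrays were not compared across genotypes, so pairing by number and a likeness of array sets cannot be told apart. The fit and the exact tests given first do not use the pairing. The fit with the replicate number as a block is an alternative. The number of arrays limits the precision.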

Additional observations from a re-analysis of the deposited data

How the results depend on the processing

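The AGL54 change kept its direction and its call in all 25 alternatives. With the values as deposited, AGL26 was at 1.14 and AGL103 at 1.45, both called, on a scale where the median of all probes was 0.996 and 87.6% of calls were higher, against 41.3% after quantile normalisation. Replicates 3 and 4 alone gave 0.74 for AGL103, also called, in a setting where 1703 of 2876 probes were called. A common median gave -0.030 for AGL26, a turn of sign. Array pairs as a random block gave 924 called probes and means of array pairs 686, against 1513. In the paired analysis with the replicate block, 1656 probes were called, AGL54 was at 1.95 (adjusted p = 0.000311), AGL26 at 0.25 (0.215) and AGL103 at 0.38 (0.147), so no call of the 3 genes changed. Leaving out each array gave 3.33 to 7.06 points for the AGL26 rank, 1.36 to 1.78 for the change of AGL54 minus that of AGL103, and -0.36 to 0.046 for AGL26 minus AGL103. The last was 0.046 without *atpd* replicate 3, 0.033 without *atpd* replicate 4, 0.029 without WT replicate 1 and 0.012 with cyclic loess. These settings for differences between genes were added after the data were seen. AT4G38020 was at -0.34 in replicates 3 and 4 alone and AT5G15390 at 0.95 as deposited. Where scaling or the removal of an array changed a result, the cause was not tested. Signal over background could not be judged, since the table holds no background values.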
